A study of Mus musculus with 12 samples.

Results

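This is a description of 48 genes of the DNA replication fork and of deoxynucleotide supply in induced MEL cells. MEL is a line of mouse erythroleukemia cells, blocked as early red cell precursors, that make hemoglobin when a chemical inducer is added. The genes were chosen by name and function: subunits of the replicative DNA polymerases, the sliding clamp and its loader, the origin recognition complex, CDC45 and GINS, the fork and chromatin factors that travel with them, and 4 genes of deoxynucleotide supply. The MCM helicase genes were left out of the 48, and the list was drawn up with earlier results of these data known. All 48 were found among the 37991 genes counted in each library, and all 48 passed the filter on low counts that left 12837 genes for testing. Each of 4 groups had 3 libraries of polyadenylated RNA. Control cells are MEL cells labelled as control, and KD cells carry a knockdown of LDB1. The delta45 cells carry the same knockdown together with an Ldb1 construct with a deletion labelled delta 4/5, and FL cells carry the knockdown together with a full-length Ldb1 construct. All 4 groups were induced. The labels do not name the inducer or its duration, the way the knockdown was made, the promoter of the constructs, or whether each line is 1 clone. They also do not say whether the 3 replicates of a group were separate cultures, so the p-values measure the spread between these libraries, which may be technical.

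At a replication origin, the origin recognition complex marks the site and helps load the MCM helicase, and the DDK kinase then allows the recruitment of CDC45 and GINS, which turn MCM into the active helicase. Behind it, polymerase alpha with primase lays down short primers, the clamp loader RFC places the PCNA ring on them, and polymerases epsilon and delta copy the leading and the lagging strand, while RPA coats single-stranded DNA and CAF-1 packs the new DNA into nucleosomes. Ribonucleotide reductase, thymidylate synthase and thymidine kinase supply the deoxynucleotides, and many genes of this group are known targets of E2F factors at the start of S phase. Red cell precursors divide rapidly and shut these genes down when they leave the cell cycle at the end of maturation. LDB1 is an adaptor protein that joins GATA1, TAL1 and LMO2 at erythroid enhancers and promoters.

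Libraries held 8783970 to 20464959 gene reads, of which the 48 genes took 0.319, 0.302 and 0.326% in control, 0.441, 0.381 and 0.398% in KD, 0.541, 0.536 and 0.539% in delta45 and 0.1502, 0.154 and 0.157% in FL. Levels are in CPM, the deposited counts brought to a common library size after TMM scaling. Ldb1 itself read 743, 773 and 637 CPM in control, 159, 132 and 97.1 in KD, 750.4, 781 and 764 in delta45 and 3696, 3411 and 3210.0 in FL, so KD was the lowest group, delta45 overlapped control and FL lay above every other library. The labels give no level that the constructs were meant to reach. Globin genes, Alas2 and Gata1, which define the erythroid line, were read in all 12 libraries. The summed level of 11 erythroid markers was 2999 to 5537 CPM in KD and 5194 to 5384 in delta45, which overlapped. It was 12199 to 13077 in control and 33210 to 40330 in FL. In delta45 against KD 4 of the 11 rose and 4 fell, where 29.2% of all genes rose and 30.7% fell. Tfrc was higher in delta45 (1910 to 2490 CPM, against 514 to 650 in KD) and Hbb-bt lower (76.3 to 104, against 291 to 451). Slc4a1 ranged from 30 to 30.8 CPM in FL and 43.3 to 69.8 in control. Reads that aligned to several places were 50.6 to 53.31% of the tallied reads in control and 38.69 to 39.22% in delta45, with KD and FL in between. The KD libraries were the least alike, and the summed level of 15 interferon response genes in them was 412, 5889.7 and 14246 CPM, against 274 to 1946 in the other groups. The 8 myeloid markers summed to 64.8 to 80.4 CPM in control and 27.8 to 66.7 in KD, against 8.72 to 9.99 in delta45 and 11.1 to 12.8 in FL. In control most of that sum was Prtn3, at 55 to 71.3 CPM, against 3.58 to 5.53 in delta45 and 6.04 to 7.56 in FL. Cd68 went the other way, at 0.536 to 0.705 CPM in control, 4.01 to 5.24 in delta45 and 2.91 to 4.41 in FL. Mpo in FL, at 0.833 to 1.4 CPM, overlapped control (0.501 to 1.29). Of 5 myeloid markers tested, 1 rose and 3 fell in KD against control. The counts were the same in FL and in delta45 against KD. Of the 15 interferon genes 14 were tested, and 10 rose in KD against control, where 25.6% of all genes rose. However, the KD libraries lay above control without overlap for 0 of the 14. The sum in KD 1, 412 CPM, was below every control library (1574 to 1946). Of the lymphoid markers, Cd3g and Lck were tested, and both rose in KD against control and fell in delta45 and FL against KD. Cd3g ranged from 9.12 to 15.8 CPM in KD, 5.14 to 5.52 in control, 2.11 to 2.48 in delta45 and 0.104 to 0.53 in FL, and Lck from 18.3 to 29.2, 8.02 to 10.4, 3.07 to 3.56 and 6.15 to 8.95 in the same order, while Ms4a1, a B cell marker, was at 0 in every library. Of 6 megakaryocyte markers tested, 2 rose and 2 fell in KD against control, 1 rose and 3 fell in FL against KD, and 0 rose and 6 fell in delta45 against KD. The 2 that rose in KD against control were Pf4 and Gp1bb, and the 2 that fell were Itga2b and Tubb1. Pf4 ranged from 514 to 586 CPM in FL, 454 to 526 in KD, 64.6 to 78.1 in control and 22.6 to 27.9 in delta45. Itga2b ranged from 2080 to 2200 CPM in FL, 252 to 279 in KD, 720 to 829 in control and 103 to 117 in delta45. Col1a1, the stromal marker that was tested, ranged from 5.23 to 7.52 CPM in control, 1.66 to 6.07 in KD, 0.625 to 1.28 in FL and 0.256 to 0.328 in delta45, and Col1a2 and Dcn were at 0 in every library. The part of these differences in the results was not tested.

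For most of the 48 genes FL was the lowest group and delta45 or KD the highest. Mean CPM was lowest in FL for 43 of the 48 genes, and highest in delta45 for 28, in KD for 16, in control for 3 and in FL for 1. Summed over the 48 genes, the level was 3092 ± 125 CPM in control, 3858 ± 195.5 in KD, 5084 ± 91.5 in delta45 and 1756 ± 33.1 in FL (mean ± SD, n = 3). The 4 groups of sums did not overlap. In bulk RNA, fewer cells that express these genes and less RNA of them per cell cannot be told apart. Gene by gene, all 3 FL libraries lay below the other 9 for 39 of the 48 genes, against 13.4% of all genes tested. All 3 delta45 libraries lay above the other 9 for 23 of the 48, against 14.9% of all genes. The heatmap of the 48 genes by library shows both patterns.

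**Figure D1:**
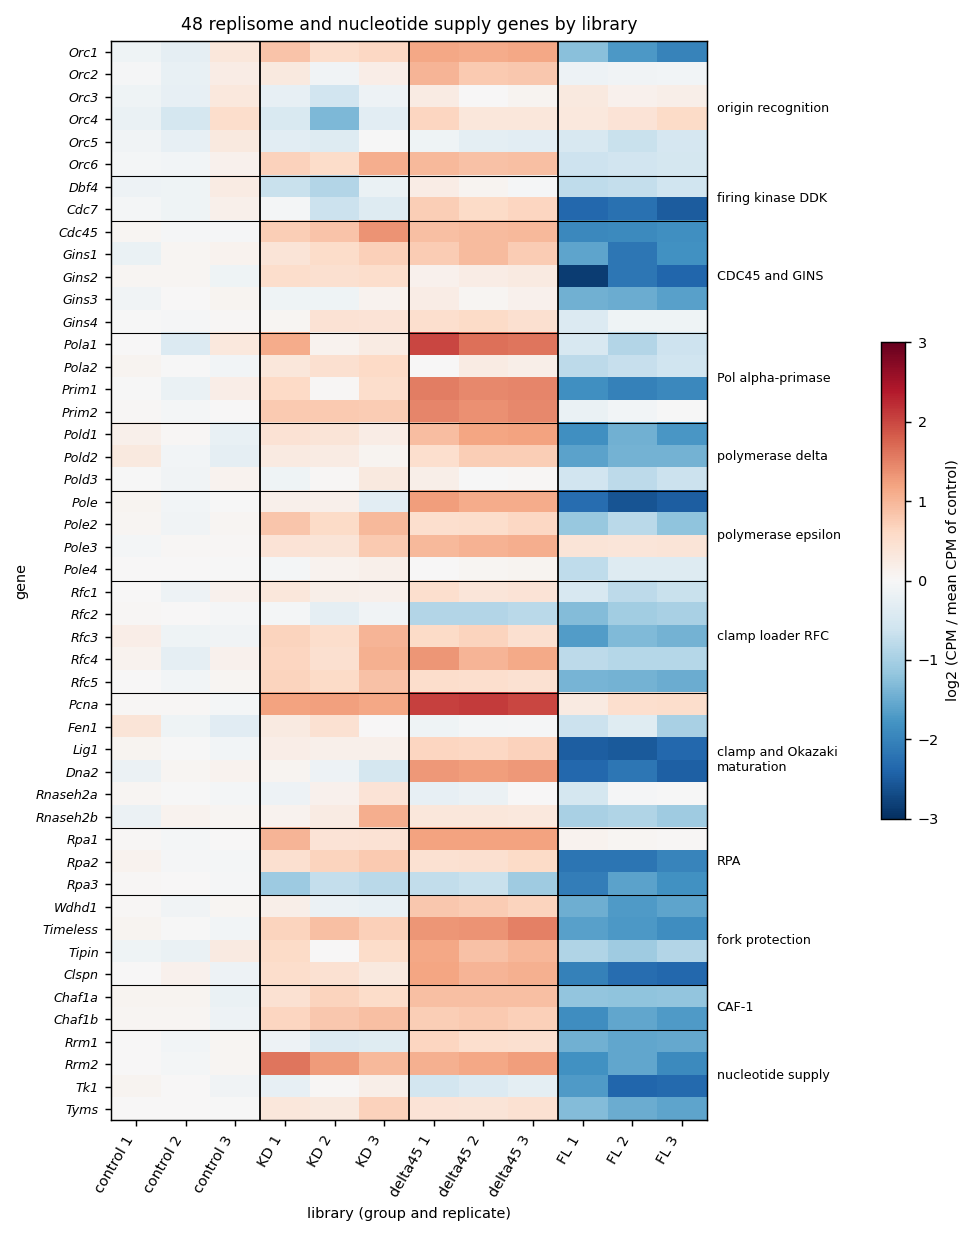
Level of each of the 48 genes (rows, grouped by role) in each of the 12 libraries (columns), as log2 of CPM over the mean CPM of the 3 control libraries. The FL columns are blue for most genes and the delta45 columns red, and Orc3, Orc4, Pcna and Pole3 stand out in FL as pale red.

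Each gene was tested with edgeR's quasi-likelihood test over all 12 libraries and called where the p adjusted by Benjamini-Hochberg over all genes tested was under 0.05. In brackets below, a change is the log2 change ± SE with its adjusted p. When LDB1 was knocked down, 25 of the 48 genes rose and 3 fell against control, where 25.6% of all genes rose and 24.1% fell. Their median change was 0.41 on the log2 scale, against 0.020 for all genes tested, and 2 of them, Pcna and Rrm2, rose at least 2-fold, against 8.32% of all genes. With only the KD and control libraries in the fit, 19 rose and 1 fell, where 51% of all genes called rose. Prim1, Pold1, Gins1, Gins4, Rnaseh2b and Tyms were then not called as higher (adjusted p = 0.122, 0.0829, 0.0563, 0.116, 0.145, 0.0525 in that order), nor Dbf4 and Rrm1 as lower (adjusted p = 0.0639, 0.102 in that order). With full-length Ldb1 added, 41 of the 48 fell and 2 rose against KD, where 31.7% of all genes fell and 26.3% rose. The median change was -1.53, against -0.060 for all genes, and 31 fell at least 2-fold, against 16% of all genes. With the delta45 construct, 24 rose and 3 fell against KD, where 29.2% of all genes rose and 30.7% fell. The median change was 0.31, against -0.013 for all genes, and 5 rose at least 2-fold (Pola1, Prim1, Pole, Dna2 and Orc4), against 10.8% of all genes.

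FL against delta45, the comparison of the lines with a construct, had the largest median change of the 6 comparisons. Ldb1 read 3210 to 3696 CPM in FL and 750.4 to 781.2 in delta45. Construct, Ldb1 level and line cannot be told apart here. Against delta45, 43 of the 48 genes fell in FL and 0 rose, where 27% of all genes fell and 25.8% rose. By DESeq2 0 rose as well, and none of the 48 was higher at an unadjusted p under 0.05. Their median change was -1.90, against -0.0052 for all genes, and 35 fell at least 2-fold, against 13.6% of all genes. The 5 genes that were not called were Rfc2, Rnaseh2a, Orc3, Orc4 and Orc5. Against control, 39 of the 48 fell in FL and 2 rose, where 31.2% of all genes fell and 28.1% rose, with a median of -1.31 and 27 at least 2-fold lower (17.8% of all genes). In delta45 against control, 33 rose and 3 fell, where 31.9% of all genes rose and 32.5% fell, with a median of 0.65 and 15 at least 2-fold higher (14% of all genes). These comparisons share libraries, as KD, delta45, FL and control each enter 3 of them. FL libraries have TMM factors of 0.8705 to 0.88 and the other groups 1.002 to 1.114. With library totals alone as the scale, the median of all genes shifted to -0.33 in FL against KD, to -0.28 in FL against delta45 and to -0.23 in FL against control. The share of called genes that rose was then 26.7%, 29.2% and 31.8%, against 45.4%, 48.8% and 47.4% with TMM. The median of the 48 genes was then -1.79, -2.18 and -1.53. Of the 48, 46 then fell in FL against KD, 45 against delta45 and 42 against control. Most of all genes called fell as well with that scale. The falls it added were those of Orc2, Orc5, Dbf4, Pole3 and Rnaseh2a against KD, of Rfc2 and Orc5 against delta45 and of Prim2, Gins4 and Rnaseh2a against control, and the rises it lost were that of Orc3 against KD and those of Pole3 and Pcna against control.

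**Figure D2:**
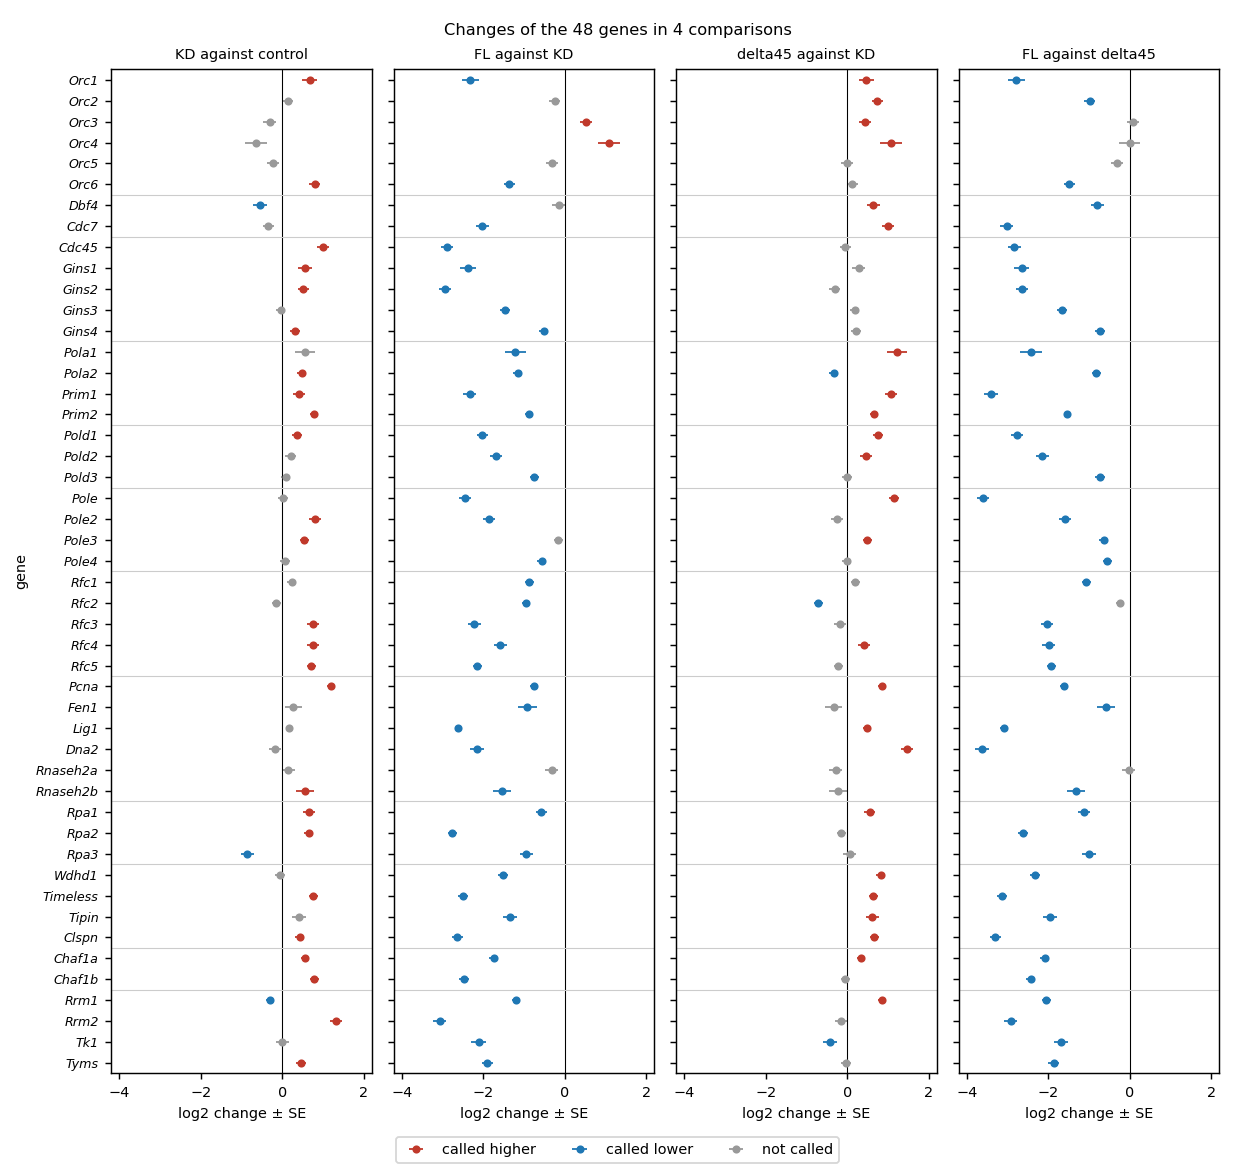
Log2 change ± SE (edgeR) of each of the 48 genes in KD against control, FL against KD, delta45 against KD and FL against delta45, in red where the gene rose, in blue where it fell and in grey where it was not called. In FL against delta45, 43 points are blue and 0 red, and the 5 grey points lie between -0.31 and 0.085.

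The origin recognition complex was the one role with members called in both directions in FL against KD. Of its 6 subunits, 2 rose in KD against control and 0 fell, where 25.6% of all genes rose and 24.1% fell. In FL against KD, 2 fell and 2 rose, which lay near the shares over all genes (31.7% and 26.3%). In delta45 against KD 4 rose, where 29.2% of all genes did, and in FL against delta45 3 fell, where 27% did. Promoter letters are shown here for 4 of the 6, because Orc1 and Orc6 fell in FL against KD while Orc3 and Orc4 rose. They are the 100 bases before the RefSeq start of each gene (GRCm38.p6, printed 5′ to 3′ along the gene), and capitals mark a 7-letter E2F match, which is TTCCCGC, or its variant TTGGCGC, or the variant TTCGCGC, or the variant TTGCCGC, on either strand.
Orc1, chr4:108579354-108579453, plus strand: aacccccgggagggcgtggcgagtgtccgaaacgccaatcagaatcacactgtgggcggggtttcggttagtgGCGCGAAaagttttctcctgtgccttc
Orc6, chr8:85299532-85299631, plus strand: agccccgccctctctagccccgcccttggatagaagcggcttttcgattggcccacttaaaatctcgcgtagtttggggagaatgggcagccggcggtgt
Orc3, chr4:34614943-34615042, minus strand: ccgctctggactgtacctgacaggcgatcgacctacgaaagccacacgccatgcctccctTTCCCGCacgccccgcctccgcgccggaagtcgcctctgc
Orc4, chr2:48949268-48949367, minus strand: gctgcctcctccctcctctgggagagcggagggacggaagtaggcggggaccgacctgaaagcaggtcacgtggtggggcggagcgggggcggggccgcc
Orc1 and Orc3 each hold 1 match in these 100 bases, and Orc6 and the Orc4 start shown, 1 of 3 in the table, hold 0. A match of that Orc4 start lies further upstream, at -140, as counted from the start.

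Orc1, the large ATPase subunit that comes and goes with the cell cycle, read 13.6, 12.3 and 18.7 CPM in control, 26.8, 21.6 and 22.9 in KD, 33.4, 32.01 and 33.1 in delta45 and 6.25, 4.53 and 3.71 in FL. The 4 groups did not overlap. Its level fell in FL against KD (-2.32 ± 0.21, adjusted p = 1.19e-06), against control (-1.66 ± 0.21, adjusted p = 1.95e-05) and against delta45 (-2.79 ± 0.21, adjusted p = 1.6e-07), the last being 6.9-fold. Its rise in delta45 against KD (0.46 ± 0.18, adjusted p = 0.043) was not called without KD 2, KD 3, delta45 1, delta45 2 or delta45 3 (adjusted p = 0.101, 0.0813, 0.0828, 0.0624, 0.0724 in that order). Orc6, the smallest subunit, read 37.3, 36.8 and 42.7 CPM in control, 62.95, 56.9 and 82.7 in KD, 76.8, 71.5 and 72.9 in delta45 and 25.3, 26.04 and 27.2 in FL. KD and delta45 overlapped and both lay above control, with a rise in KD (0.79 ± 0.13, adjusted p = 0.000323) and in delta45 (0.92 ± 0.13, adjusted p = 5.26e-05) against control. FL lay below every other library for both genes. Without KD 3, the highest KD library, Orc6 was also called in delta45 against KD (adjusted p = 0.0308).

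Orc2, a core subunit, read 46.7, 41.02 and 56.5 CPM in control, 58.6, 44.4 and 55.3 in KD, 96.8, 82.4 and 84.5 in delta45 and 43.1, 44.99 and 45.1 in FL. It rose in delta45 against KD (0.73 ± 0.14, adjusted p = 0.00055), while its change in KD against control (0.13 ± 0.14, adjusted p = 0.442) and in FL against KD (-0.25 ± 0.14, adjusted p = 0.137) and control (-0.12 ± 0.14, adjusted p = 0.483) was not called. With library totals as the scale, its fall in FL against KD was called (-0.52, adjusted p = 0.00681). Delta45 lay above the other 9 libraries for Orc2, and 29.8% of its exon length overlaps exons of Nif3l1. Orc3, another core subunit, read 76.8, 70.9 and 103 CPM in control, 70.4, 56.3 and 75.4 in KD, 98.7, 83.8 and 89.2 in delta45 and 102, 90.9 and 95.2 in FL. It rose in FL against KD (0.51 ± 0.15, adjusted p = 0.0106), but was not called with library totals as the scale (0.24, adjusted p = 0.174), and its change in delta45 against control was 0.11 ± 0.15, adjusted p = 0.53. Orc4, an ATPase subunit, read 49.1, 39.02 and 81.9 CPM in control, 41.1, 22.4 and 45.4 in KD, 88.6, 71.8 and 71.1 in delta45 and 70.6, 75.7 and 83.98 in FL. It rose 2.11-fold in FL against KD (1.07 ± 0.27, adjusted p = 0.00422), still called with library totals (0.81, adjusted p = 0.0202), and FL against delta45 was not called (-0.0075 ± 0.26, adjusted p = 0.988). Control 3 was the highest control library for Orc3, Orc4 and Orc5, and without it Orc3 rose in FL against control (adjusted p = 0.0165), as did Orc4 (adjusted p = 0.0101), which then also rose in delta45 against control (adjusted p = 0.0109). Orc4 was not called in KD against control (-0.64 ± 0.27, adjusted p = 0.0633) but was called as lower by DESeq2 (adjusted p = 0.0285) and without control 2, KD 1 or KD 3 (adjusted p = 0.0228, 0.0441, 0.0335 in that order). For Orc3, the rise in delta45 against KD (0.43 ± 0.15, adjusted p = 0.0254) was lost without KD 2 or delta45 1 (adjusted p = 0.0789, 0.0723 in that order), and without control 2 it was called as lower in KD against control (adjusted p = 0.047). Orc5, the remaining ATPase subunit, ran from 42.0 CPM in FL 2 to 82.3 in control 3, and its change in delta45 against KD was -0.017 ± 0.15, adjusted p = 0.93. Its fall in FL against control (-0.55 ± 0.15, adjusted p = 0.00612) was lost without control 3 (adjusted p = 0.0572). With library totals as the scale, Orc5 also fell in FL against KD (-0.59, adjusted p = 0.00299) and delta45 (-0.58, adjusted p = 0.0033), the latter also with only those 2 groups in the fit (adjusted p = 0.00814).

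The DDK kinase has a catalytic subunit, Cdc7, and an activating subunit, Dbf4, and these had unlike levels. Cdc7 read 49.6, 47.2 and 57.4 CPM in control, 49.2, 33.0 and 39.2 in KD, 86.3, 77.1 and 79.8 in delta45 and 10.001, 10.8 and 9.18 in FL. In FL it fell against KD (-2.03 ± 0.15, adjusted p = 2.97e-07), control (-2.37 ± 0.15, adjusted p = 5.66e-08) and delta45 (-3.03 ± 0.16, adjusted p = 6.99e-09), and rose in delta45 against KD (0.999 ± 0.14, adjusted p = 7.01e-05) and control (0.66 ± 0.14, adjusted p = 0.00113). Its change in KD against control was not called (-0.34 ± 0.14, adjusted p = 0.0592), but was called without KD 1 (adjusted p = 0.00393). FL lay below all other libraries and delta45 above them. Dbf4 read 117, 120.2 and 154 CPM in control, 82.8, 71.2 and 115 in KD, 152, 139 and 127 in delta45 and 76.5, 79.1 and 85.7 in FL. It fell in KD against control (-0.55 ± 0.16, adjusted p = 0.014), a call that was lost without control 3 or KD 2 (adjusted p = 0.0594, 0.0566 in that order), and rose in delta45 against KD (0.64 ± 0.16, adjusted p = 0.00447). FL was lower than control (-0.70 ± 0.16, adjusted p = 0.0025) and delta45 (-0.79 ± 0.16, adjusted p = 0.00114), whereas FL against KD (-0.15 ± 0.16, adjusted p = 0.437) and delta45 against control (0.095 ± 0.16, adjusted p = 0.624) were not called. FL and KD overlapped for Dbf4, although with library totals as the scale it was called as lower in FL (adjusted p = 0.0324).

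CDC45 and the 4 GINS subunits join the MCM ring to make the active helicase. Of these 5 genes, 4 rose in KD against control, where 25.6% of all genes rose. All 5 fell in FL against KD and against delta45, where 31.7% and 27% of all genes fell. In delta45 against KD edgeR called 0 of the 5, where 29.2% of all genes rose and 30.7% fell. There 1 of the 5 was at an unadjusted p under 0.05, Gins2, which DESeq2 called as lower (adjusted p = 0.0221). The median change of the 5 was -2.38 in FL against KD. Cdc45 read 55.8, 52.4 and 52.5 CPM in control, 88.7, 96.7 and 135 in KD, 101, 103 and 105 in delta45 and 13.96, 14.3 and 14.9 in FL. Its level rose in KD against control (0.998 ± 0.14, adjusted p = 6.86e-05) and in delta45 against control (0.94 ± 0.14, adjusted p = 5.6e-05), and KD 3 was its highest library. The change in delta45 against KD was not called (-0.056 ± 0.14, adjusted p = 0.737), and FL was 7.13-fold lower than delta45 (-2.83 ± 0.15, adjusted p = 7.85e-09). All 3 FL libraries lay below the other 9, and control lay between FL and the remaining groups.

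Gins2, a core GINS subunit, read 39.01, 38.8 and 34.3 CPM in control, 54.03, 52.1 and 53.9 in KD, 41.1, 43.3 and 44.8 in delta45 and 5.21, 8.25 and 7.18 in FL. A fall was called in FL against KD (-2.95 ± 0.15, adjusted p = 9.02e-09) and control (-2.44 ± 0.15, adjusted p = 2.73e-08), and KD lay above all other libraries, with delta45 against KD not called (-0.31 ± 0.13, adjusted p = 0.0534). Of its exon length, 67.3% overlaps exons of Gse1 in GENCODE M21, so its value is uncertain in a library without strand. Gins3 read 28.7, 31.2 and 32.4 CPM in control, 28.2, 28.3 and 33.3 in KD, 36.04, 32.1 and 33.7 in delta45 and 11.4, 10.9 and 10.01 in FL. Its change was not called in KD (-0.041 ± 0.12, adjusted p = 0.788) or delta45 (0.14 ± 0.11, adjusted p = 0.301) against control, and FL lay below every other library. Gins4, the subunit with the smallest fall in FL, read 69.2, 68.8 and 72.5 CPM in control, 73.6, 94.4 and 93.6 in KD, 100.01, 105 and 97.6 in delta45 and 53.03, 64.4 and 64.4 in FL. It fell in FL against KD (-0.52 ± 0.12, adjusted p = 0.00214) and delta45 (-0.73 ± 0.12, adjusted p = 0.000172), but not against control (-0.21 ± 0.12, adjusted p = 0.142). All 3 FL libraries lay below the 3 control libraries for Gins4, and with library totals as the scale the fall against control was called (-0.43, adjusted p = 0.0045). The rise of Gins4 in KD against control was not called without control 1, control 2, control 3, KD 2 or KD 3 (adjusted p = 0.103, 0.103, 0.067, 0.135, 0.101 in that order), and that of Gins1, the remaining subunit at 2.21 to 19.4 CPM, was not called without control 1 (adjusted p = 0.0638).

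Polymerase alpha and primase start every new strand. All 4 genes fell in FL against KD and against delta45, where 31.7% and 27% of all genes fell. In delta45 against KD 3 rose and 1 fell, where 29.2% of all genes rose and 30.7% fell. Pola1, the catalytic subunit, read 41.3, 31.1 and 51.1 CPM in control, 88.8, 44.6 and 48.7 in KD, 166, 129 and 126 in delta45 and 29.4, 22.3 and 26.7 in FL. KD 1 stood apart from KD 2 and KD 3, and the change in KD against control was not called (0.56 ± 0.25, adjusted p = 0.0767), though it was without control 3, KD 2 or KD 3 (adjusted p = 0.0455, 0.0334, 0.041 in that order). Pola1 fell in FL against KD (-1.22 ± 0.25, adjusted p = 0.00118), and delta45 lay above the other 9 libraries. Its fall in FL against control (-0.66 ± 0.25, adjusted p = 0.0384) was lost without control 1, control 3, FL 1, FL 2 or FL 3 (adjusted p = 0.0771, 0.214, 0.0524, 0.124, 0.081 in that order). Prim1, the catalytic primase subunit, read 41.04, 36.01 and 47.5 CPM in control, 62.9, 42.8 and 59.5 in KD, 121, 113 and 114 in delta45 and 11.6, 10.2 and 10.9 in FL. Its level fell in FL against KD (-2.34 ± 0.16, adjusted p = 1.04e-07), control (-1.93 ± 0.16, adjusted p = 4.21e-07) and delta45 (-3.41 ± 0.16, adjusted p = 3.75e-09), the last being 10.6-fold, and rose in delta45 against KD (1.07 ± 0.14, adjusted p = 4.72e-05). FL lay below and delta45 above all other libraries. The rise of Prim1 in KD against control (0.41 ± 0.14, adjusted p = 0.033) was lost without control 1, control 2, KD 1 or KD 3 (adjusted p = 0.0843, 0.13, 0.0994, 0.0815 in that order).

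Prim2 and Pola2 are the partners of these catalytic subunits. Prim2, the large primase subunit, read 36.4, 34.1 and 35.6 CPM in control, 61.2, 60.8 and 60.1 in KD, 98.05, 92.1 and 96.3 in delta45 and 30.7, 33.4 and 34.8 in FL. A rise was called in KD (0.78 ± 0.093, adjusted p = 2.23e-05) and delta45 (1.43 ± 0.093, adjusted p = 5.37e-08) against control, and in FL against control it was not called (-0.099 ± 0.094, adjusted p = 0.377). The FL and control libraries of Prim2 overlapped, although with library totals as the scale it was called as lower in FL (-0.32, adjusted p = 0.0127). Pola2, the B subunit that tethers polymerase alpha to the fork, read 91.1, 84.95 and 80.3 CPM in control, 107, 119.5 and 130.3 in KD, 86.3, 101 and 96.4 in delta45 and 49.9, 52.8 and 56.8 in FL. It was lower in delta45 than in KD (-0.33 ± 0.11, adjusted p = 0.0163), the opposite of Pola1, a call that was lost without delta45 1 or delta45 3 (adjusted p = 0.105, 0.0543 in that order). FL against delta45 was called (-0.83 ± 0.11, adjusted p = 2.91e-05) and delta45 against control was not (0.15 ± 0.11, adjusted p = 0.252). The ratio of Pola1 reads to Pola2 reads, chosen after the values were seen, was 0.485 ± 0.14 in control, 0.524 ± 0.26 in KD, 1.51 ± 0.36 in delta45 and 0.494 ± 0.086 in FL (mean ± SD, n = 3).

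Polymerase delta copies the lagging strand. Pold1, its catalytic subunit, read 82.2, 74.9 and 63.4 CPM in control, 99.8, 96.8 and 86.2 in KD, 140.1, 168 and 169 in delta45 and 20.6, 26.97 and 21.95 in FL. In FL it fell against KD (-2.03 ± 0.14, adjusted p = 1.26e-07), control (-1.67 ± 0.14, adjusted p = 5.32e-07) and delta45 (-2.78 ± 0.14, adjusted p = 6.96e-09), and rose in delta45 against KD (0.75 ± 0.13, adjusted p = 0.000363) and control (1.11 ± 0.13, adjusted p = 1.02e-05). FL lay below and delta45 above the other 9 libraries. Its rise in KD against control (0.36 ± 0.13, adjusted p = 0.0376) was lost without control 2, control 3, KD 1 or KD 2 (adjusted p = 0.072, 0.152, 0.0762, 0.0903 in that order), and by DESeq2 (adjusted p = 0.0547). Pold3, an accessory subunit, read 91.1, 85.7 and 98.7 CPM in control, 83.9, 94.3 and 113 in KD, 104, 91.4 and 93.5 in delta45 and 61.4, 53.1 and 58.9 in FL. A fall was called in FL against KD (-0.75 ± 0.12, adjusted p = 0.000193), control (-0.67 ± 0.12, adjusted p = 0.000403) and delta45 (-0.74 ± 0.12, adjusted p = 2e-04). The groups without FL overlapped for Pold3, with changes of 0.078 ± 0.12, adjusted p = 0.614 in KD against control, -0.0082 ± 0.12, adjusted p = 0.96 in delta45 against KD and 0.069 ± 0.12, adjusted p = 0.628 in delta45 against control. Pold2, another accessory subunit, ran from 19.9 to 101.5 CPM and had delta45 above and FL below all other libraries. Its change in KD against control was not called (0.20 ± 0.14, adjusted p = 0.244) but was without control 1 (adjusted p = 0.0353).

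Polymerase epsilon copies the leading strand and has a catalytic subunit, Pole, a second subunit, Pole2, and a pair of small histone-fold subunits, Pole3 and Pole4. Pole read 83.6, 75.5 and 79.5 CPM in control, 88.3, 88.4 and 63.7 in KD, 188, 172 and 173 in delta45 and 16.3, 13.3 and 14.2 in FL. KD overlapped control (0.011 ± 0.13, adjusted p = 0.953), delta45 lay above all other libraries and FL below them. It rose 2.22-fold in delta45 against KD (1.15 ± 0.13, adjusted p = 1.13e-05) and fell in FL against KD (-2.46 ± 0.14, adjusted p = 2.57e-08), control (-2.45 ± 0.14, adjusted p = 1.92e-08) and delta45 (-3.61 ± 0.15, adjusted p = 1.28e-09), the last being 12.2-fold. Pole2 read 16.1, 14.4 and 16.1 CPM in control, 27.9, 23.1 and 30.6 in KD, 22.1, 22.5 and 23.8 in delta45 and 7.08, 8.84 and 6.77 in FL. The gene rose in KD against control (0.81 ± 0.14, adjusted p = 0.000463), and KD held its 2 highest libraries.

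The small subunits differed from Pole. Pole3 read 59.2, 62.5 and 62.7 CPM in control, 81.8, 80.98 and 106 in KD, 121, 126 and 130.03 in delta45 and 80.6, 79.6 and 80.98 in FL. Control was its lowest group, and it rose in FL against control (0.39 ± 0.11, adjusted p = 0.00873), though not with library totals as the scale (0.17, adjusted p = 0.173). It rose in delta45 against control (1.03 ± 0.11, adjusted p = 3.97e-06) and was not called in FL against KD (-0.16 ± 0.11, adjusted p = 0.242), but was with library totals (-0.42, adjusted p = 0.00295). Pole3 is also a subunit of a chromatin remodeling complex. Pole4 read 84.9, 85.2 and 83.9 CPM in control, 80.8, 91.1 and 94.3 in KD, 85.2, 88.6 and 89.99 in delta45 and 49.9, 64.4 and 64.9 in FL. The control, KD and delta45 libraries lay close together, with changes of -0.013 ± 0.11, adjusted p = 0.932 in delta45 against KD and 0.055 ± 0.11, adjusted p = 0.683 in delta45 against control, and FL was lower than delta45 (-0.56 ± 0.11, adjusted p = 0.00104). The ratio of Pole reads to Pole4 reads, chosen after the values were seen, was 0.94 ± 0.049 in control, 0.913 ± 0.21 in KD, 2.03 ± 0.16 in delta45 and 0.25 ± 0.066 in FL (mean ± SD, n = 3).

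**Figure D3:**
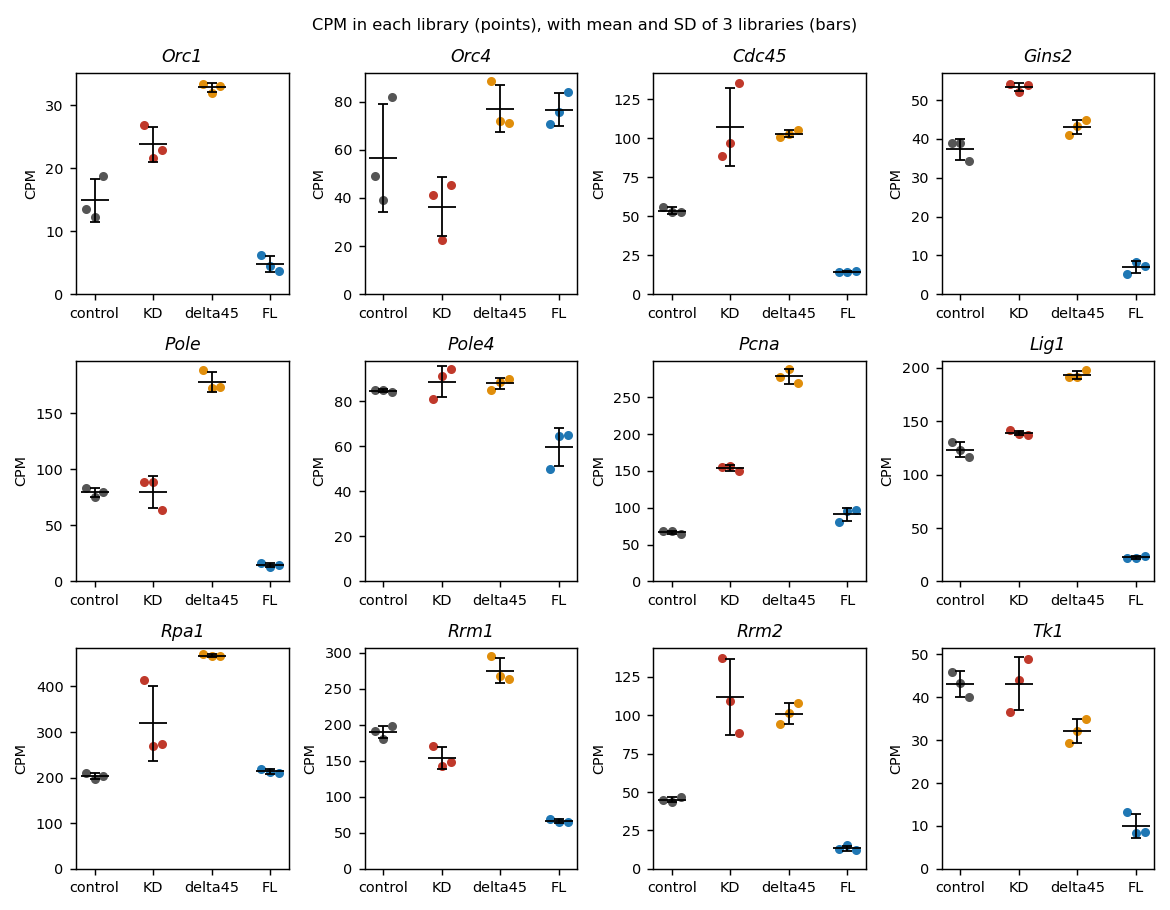
CPM of 12 of the 48 genes in each library (points), with the mean and SD of the 3 libraries of each group (bars). Cdc45, Gins2, Pole, Lig1, Rrm1, Rrm2 and Tk1 are lowest in all 3 FL libraries, whereas FL overlaps other groups for Orc4 and Rpa1, and Pcna is lowest in control.

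The clamp loader RFC opens the PCNA ring and closes it on a primer. All 5 subunits fell in FL against KD and against control, where 31.7% and 31.2% of all genes fell. In FL against delta45 4 fell, where 27% of all genes did. Rfc5 read 58.5, 54.96 and 60.3 CPM in control, 91.96, 85.97 and 107 in KD, 82.95, 82.2 and 79.6 in delta45 and 22.2, 21.6 and 20.6 in FL. It rose in KD against control (0.71 ± 0.10, adjusted p = 9.81e-05) and fell in FL against KD (-2.15 ± 0.11, adjusted p = 1.04e-08), control (-1.43 ± 0.11, adjusted p = 1.98e-07) and delta45 (-1.93 ± 0.11, adjusted p = 1.26e-08). KD lay above and FL below all other libraries. Rfc2 read 116, 113 and 110.2 CPM in control, 108, 93.8 and 105 in KD, 61.2, 61.9 and 64.5 in delta45 and 45.7, 54.9 and 57.4 in FL. It was highest in control, where the other 4 were highest in KD or delta45, and was lower in delta45 than in KD (-0.71 ± 0.10, adjusted p = 9.91e-05) and control (-0.86 ± 0.10, adjusted p = 1.26e-05). Rfc2 was not called in KD against control (-0.15 ± 0.10, adjusted p = 0.261) or in FL against delta45 (-0.25 ± 0.11, adjusted p = 0.0669). The latter was called with library totals as the scale (-0.52, adjusted p = 0.00157) and with only those 2 groups in the fit (adjusted p = 0.0442). Of its exon length, 15.1% lies in exons of Lat2, a gene of blood cells on the opposite strand.

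The other RFC subunits shared a pattern of low FL values. Rfc1, the large subunit, read 143, 128 and 155 CPM in control, 181, 161 and 157 in KD, 201, 184 and 188 in delta45 and 101, 82.3 and 89.5 in FL, and had the smallest fall of the 5 in FL against KD (-0.87 ± 0.11, adjusted p = 2.4e-05). Without KD 1, Rfc1 was called in delta45 against KD (adjusted p = 0.0426). Rfc3 read 43.5, 34.4 and 35.03 CPM in control, 59.7, 54.6 and 76.8 in KD, 55.7, 60.3 and 52.3 in delta45 and 11.8, 15.1 and 14.1 in FL. It was not called in delta45 against KD (-0.18 ± 0.15, adjusted p = 0.291) and rose in delta45 against control (0.58 ± 0.15, adjusted p = 0.00404). FL lay below every other library for Rfc1, Rfc3 and Rfc4. Rfc4 read 36.6, 28.6 and 37.7 CPM in control, 53.9, 47.9 and 71.9 in KD, 85.3, 69.6 and 75.3 in delta45 and 19.9, 18.9 and 18.9 in FL, and fell in FL against control (-0.84 ± 0.16, adjusted p = 0.000645). Its rise in delta45 against KD (0.41 ± 0.15, adjusted p = 0.0353) was lost without KD 1, KD 2 or delta45 1 (adjusted p = 0.0577, 0.108, 0.104 in that order).

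PCNA is the ring that holds the polymerases on DNA, and it was the one clamp gene among the 48. Pcna read 68.4, 68.2 and 64.6 CPM in control, 156, 157 and 149 in KD, 277, 289 and 269 in delta45 and 80.8, 95.8 and 96.9 in FL. The 4 groups did not overlap, and control was the lowest. It rose 2.3-fold in KD (1.199 ± 0.096, adjusted p = 9.11e-07) and 4.15-fold in delta45 (2.05 ± 0.098, adjusted p = 4.41e-09) against control, the largest rise of the 48 genes in that comparison. FL was 3.05-fold lower than delta45 (-1.61 ± 0.096, adjusted p = 2.12e-08) and lower than KD (-0.76 ± 0.095, adjusted p = 2.22e-05), but higher than control (0.44 ± 0.095, adjusted p = 0.00138), a call that was lost with library totals as the scale (0.22, adjusted p = 0.0762). The annotation lists 2 pseudogenes of Pcna, and reads shared with them may be lost as aligned to several places. Per kilobase of exon, Pcna was the highest of the 48 genes in delta45 (116 ± 4.05 CPM per kilobase of exon, mean ± SD, n = 3), where Rpa1 was the next (83.8 ± 0.525).

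Lagging strand pieces, the Okazaki fragments, are trimmed and joined by flap nucleases and a ligase. Lig1, the ligase, read 130.4, 123 and 117 CPM in control, 141, 138 and 137 in KD, 192, 191 and 198 in delta45 and 22.1, 21.6 and 24.1 in FL. It fell in FL against KD (-2.61 ± 0.095, adjusted p = 1.19e-09), control (-2.44 ± 0.094, adjusted p = 7.6e-10) and delta45 (-3.09 ± 0.096, adjusted p = 2.54e-10), the last being 8.54-fold with no overlap between libraries. Dna2, a nuclease and helicase for long flaps, read 20.3, 23.9 and 24.98 CPM in control, 24.4, 20.6 and 16.1 in KD, 56.8, 55.2 and 56.99 in delta45 and 4.48, 5.12 and 4.24 in FL. It rose 2.76-fold in delta45 against KD (1.46 ± 0.15, adjusted p = 4.94e-06), the largest rise of the 48 in that comparison, and delta45 lay above all other libraries. Fen1, the flap endonuclease, was read at 4.7 to 12.8 CPM, and 84.2% of its exon length overlaps the exons of other genes, so its level is uncertain. Fen1 read 12.1, 8.43 and 7.29 CPM in control, 11.2, 12.8 and 9.37 in KD, 8.44, 8.88 and 9.08 in delta45 and 5.94, 7.21 and 4.71 in FL, and its change in delta45 against control was -0.065 ± 0.22, adjusted p = 0.806. Its fall in FL against delta45 (-0.58 ± 0.22, adjusted p = 0.0424) was lost without delta45 1, delta45 2, delta45 3, FL 1 or FL 3 (adjusted p = 0.0915, 0.113, 0.119, 0.0862, 0.189 in that order), and that against control (-0.65 ± 0.23, adjusted p = 0.0252) without control 1, FL 1 or FL 3 (adjusted p = 0.137, 0.0572, 0.119 in that order).

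RNase H2 removes ribonucleotides and primer remnants from DNA. Rnaseh2a, its catalytic subunit, was one of the least changed of the 48 genes and read 84.8, 80.5 and 76.9 CPM in control, 72.9, 88.5 and 108 in KD, 68.05, 71.9 and 80.8 in delta45 and 56.3, 79.2 and 80.2 in FL. With TMM scaling, edgeR did not call it in any of the 6 comparisons, with 0.15 ± 0.16, adjusted p = 0.451 in KD against control, -0.32 ± 0.16, adjusted p = 0.103 in FL against KD, -0.17 ± 0.16, adjusted p = 0.383 in FL against control and -0.032 ± 0.16, adjusted p = 0.882 in FL against delta45. The groups overlapped. With library totals as the scale it fell in FL against KD (-0.58, adjusted p = 0.00509) and control (-0.39, adjusted p = 0.0406). Without KD 1 it was called as lower in FL against KD (adjusted p = 0.0381) and in delta45 against KD (adjusted p = 0.0325). Of the exon length of Rnaseh2a, 14.7% lies in exons of Prdx2 and Gm49661, in libraries without strand. Rnaseh2b, an accessory subunit, read 13.6, 16.6 and 16.1 CPM in control, 16.6, 18.5 and 33.1 in KD, 19.5, 19.5 and 19.2 in delta45 and 7.81, 8.25 and 7.36 in FL. KD 3 stood apart, delta45 against KD was not called (-0.23 ± 0.21, adjusted p = 0.372), and the rise in KD against control (0.55 ± 0.22, adjusted p = 0.0496) was lost without control 1, control 2, control 3 or KD 3 (adjusted p = 0.149, 0.0731, 0.088, 0.302 in that order). FL lay below all other libraries for Rnaseh2b.

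RPA is a trimer that protects single-stranded DNA, and its 3 genes did not move alike. Rpa1, the large subunit, read 209.7, 196 and 204 CPM in control, 414, 269 and 274 in KD, 471, 466 and 466 in delta45 and 219.6, 212 and 209.6 in FL. KD 1 stood above KD 2 and KD 3, and FL overlapped control (0.074 ± 0.14, adjusted p = 0.673). Its level rose in KD against control (0.65 ± 0.14, adjusted p = 0.00202), in delta45 against KD (0.55 ± 0.14, adjusted p = 0.00464) and in delta45 against control (1.203 ± 0.14, adjusted p = 9.46e-06), and fell in FL against KD (-0.58 ± 0.14, adjusted p = 0.00353). Rpa2 read 83.8, 76.5 and 75.05 CPM in control, 109, 124 and 136 in KD, 108, 109 and 117 in delta45 and 17.3, 17.1 and 19.8 in FL. It fell 6.79-fold in FL against KD (-2.76 ± 0.12, adjusted p = 3.58e-09), and also fell against control (-2.11 ± 0.12, adjusted p = 1.21e-08) and delta45 (-2.62 ± 0.12, adjusted p = 2.28e-09). A rise was called in KD (0.65 ± 0.11, adjusted p = 0.000296) and delta45 (0.51 ± 0.11, adjusted p = 0.00111) against control. Rpa3, the smallest subunit, read 25.8, 25.4 and 24.7 CPM in control, 11.9, 15.5 and 14.4 in KD, 15.3, 15.9 and 12.2 in delta45 and 6.04, 8.37 and 7.24 in FL. Control lay above all other libraries and FL below them, so Rpa3 fell in KD (-0.87 ± 0.16, adjusted p = 0.000634) and delta45 (-0.80 ± 0.16, adjusted p = 0.000586) against control, where Rpa1 and Rpa2 rose. Its level fell in FL against delta45 (-1.01 ± 0.17, adjusted p = 0.000212), and delta45 against KD was not called (0.063 ± 0.16, adjusted p = 0.751). The Rpa2 promoter is shown as that of the subunit with the widest fall in FL. In its 100 bases before the RefSeq start (GRCm38.p6), capitals mark 1 E2F match.
Rpa2, chr4:132768260-132768359, plus strand: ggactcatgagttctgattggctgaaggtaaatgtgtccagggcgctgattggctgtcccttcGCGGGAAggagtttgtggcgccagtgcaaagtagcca

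Timeless, Tipin and Clspn hold the polymerases and the helicase together and pass on the stall signal, and Wdhd1 links the helicase to polymerase alpha. All 4 fell in FL against KD, control and delta45, where 31.7%, 31.2% and 27% of all genes fell. All 4 rose in delta45 against KD and control, where 29.2% and 31.9% of all genes rose. Timeless read 38.7, 36.01 and 34.1 CPM in control, 57.4, 67.5 and 59.5 in KD, 90.8, 93.03 and 103 in delta45 and 11.8, 10.9 and 10.01 in FL. The gene rose in KD (0.76 ± 0.11, adjusted p = 9.33e-05) and delta45 (1.397 ± 0.11, adjusted p = 2.56e-07) against control, and fell in FL against KD (-2.500 ± 0.12, adjusted p = 6.69e-09) and delta45 (-3.13 ± 0.12, adjusted p = 1.01e-09). The 4 groups did not overlap. Tipin, its partner, read 56.6, 54.5 and 75.05 CPM in control, 92.9, 62.2 and 91.5 in KD, 139, 114 and 124 in delta45 and 33.02, 29.6 and 33.7 in FL. It had the largest adjusted p of the 4 in FL against KD (-1.36 ± 0.17, adjusted p = 2.14e-05), control (-0.95 ± 0.17, adjusted p = 0.000333) and delta45 (-1.97 ± 0.17, adjusted p = 6.87e-07), and in delta45 against KD (0.61 ± 0.16, adjusted p = 0.00608) and control (1.02 ± 0.17, adjusted p = 0.000137). In KD against control Tipin was not called (0.41 ± 0.17, adjusted p = 0.0568) but was without control 3 or KD 2 (adjusted p = 0.0178, 0.00807 in that order). Clspn, the adaptor of the checkpoint kinase CHK1, read 74.9, 80.3 and 66.5 CPM in control, 107, 101 and 90.01 in KD, 168, 150.03 and 154 in delta45 and 18.2, 15.2 and 14.5 in FL, and fell 4.63-fold in FL against control (-2.21 ± 0.13, adjusted p = 1.67e-08). Wdhd1 read 91.2, 82.04 and 93.1 CPM in control, 100.1, 78.6 and 75.8 in KD, 157, 150.3 and 141 in delta45 and 32.1, 27.4 and 29.5 in FL. KD overlapped control (-0.065 ± 0.12, adjusted p = 0.674), and delta45 rose above KD (0.82 ± 0.12, adjusted p = 9.16e-05).

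CAF-1 places new histones behind the fork, and both of its genes in the list rose in KD and fell in FL. Over all genes, 25.6% rose in KD against control and 31.7% fell in FL against KD. Chaf1a, the large subunit, read 95.7, 95.7 and 77.98 CPM in control, 122, 143 and 132 in KD, 168, 167 and 169 in delta45 and 39.8, 38.9 and 39.3 in FL. It rose in KD (0.56 ± 0.10, adjusted p = 6e-04) and delta45 (0.90 ± 0.10, adjusted p = 6.45e-06) against control and in delta45 against KD (0.34 ± 0.10, adjusted p = 0.0107). In FL it fell against KD (-1.75 ± 0.11, adjusted p = 4.25e-08), control (-1.19 ± 0.10, adjusted p = 8.55e-07) and delta45 (-2.09 ± 0.11, adjusted p = 6.67e-09), and the 4 groups did not overlap. Of its exon length, 52.5% overlaps Ubxn6, so its level is uncertain. Chaf1b read 59.6, 59.5 and 51.3 CPM in control, 88.8, 99.2 and 106 in KD, 94.3, 97.5 and 92.6 in delta45 and 15.5, 19.4 and 17.6 in FL. Its level rose in KD (0.79 ± 0.11, adjusted p = 8.79e-05) and delta45 (0.74 ± 0.11, adjusted p = 7.41e-05) against control and fell in FL against KD (-2.48 ± 0.12, adjusted p = 7.3e-09), control (-1.696 ± 0.12, adjusted p = 1.01e-07) and delta45 (-2.44 ± 0.12, adjusted p = 4.74e-09). KD and delta45 overlapped for Chaf1b (-0.046 ± 0.11, adjusted p = 0.733). The Chaf1a promoter is shown because it holds 2 E2F matches side by side, marked by capitals in the 100 bases before the RefSeq start (GRCm38.p6).
Chaf1a, chr17:56040316-56040415, plus strand: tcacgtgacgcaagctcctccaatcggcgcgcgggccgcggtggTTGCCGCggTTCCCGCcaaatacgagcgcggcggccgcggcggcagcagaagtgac

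Ribonucleotide reductase makes deoxynucleotides from ribonucleotides, with a large subunit, Rrm1, that is kept through the cell cycle, and a small subunit, Rrm2, that is limiting in S phase. Rrm2 read 45.01, 43.2 and 46.8 CPM in control, 138, 109 and 88.7 in KD, 94.1, 101 and 108 in delta45 and 12.7, 15.3 and 12.01 in FL. It rose 2.49-fold in KD against control (1.31 ± 0.15, adjusted p = 1.59e-05), the largest rise of the 48 in that comparison, and rose in delta45 against control (1.17 ± 0.15, adjusted p = 1.78e-05). FL was 8.43-fold lower than KD (-3.08 ± 0.16, adjusted p = 1.4e-08) and lower than control (-1.76 ± 0.16, adjusted p = 1.03e-06), with all 3 FL libraries below the other 9. Rrm1 read 191, 181 and 198 CPM in control, 171, 142 and 148 in KD, 295, 268 and 263 in delta45 and 69.7, 64.9 and 65.3 in FL. It was lower in KD than in control (-0.31 ± 0.099, adjusted p = 0.0204), the opposite of Rrm2, although this call was lost without control 1, control 3 or KD 2 (adjusted p = 0.0547, 0.0525, 0.0707 in that order) and with library totals as the scale (adjusted p = 0.0653). Rrm1 rose in delta45 against KD (0.84 ± 0.099, adjusted p = 1.59e-05) and fell in FL against control (-1.51 ± 0.10, adjusted p = 7.16e-08) and delta45 (-2.05 ± 0.10, adjusted p = 5.73e-09).

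Within each library, the ratio of Rrm2 reads to Rrm1 reads, chosen after the values were seen, was 0.235, 0.239 and 0.236 in control and 0.806, 0.768 and 0.6 in KD. It was 0.319, 0.379 and 0.411 in delta45 and 0.182, 0.237 and 0.184 in FL. KD had the highest ratios, delta45 lay between KD and control, and FL overlapped control. Being a ratio within a library, it does not depend on the scale between libraries. The promoters of both genes are shown because their levels parted in KD, as the 100 bases before the RefSeq start (GRCm38.p6), with capitals for an E2F match.
Rrm1, chr7:102441595-102441694, plus strand: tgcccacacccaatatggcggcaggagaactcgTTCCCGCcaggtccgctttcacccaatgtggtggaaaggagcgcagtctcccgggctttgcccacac
Rrm2, chr12:24708154-24708253, plus strand: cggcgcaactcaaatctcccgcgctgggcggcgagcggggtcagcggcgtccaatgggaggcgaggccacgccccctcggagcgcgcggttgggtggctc
Rrm1 holds 1 match in these bases, and the match of Rrm2 lies further upstream, at -235.

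Thymidine kinase 1 recovers thymidine, and thymidylate synthase makes thymidylate anew. Tk1 read 45.9, 43.4 and 39.96 CPM in control, 36.5, 44.1 and 48.9 in KD, 29.3, 32.2 and 34.97 in delta45 and 13.2, 8.25 and 8.53 in FL. KD overlapped control (0.0034 ± 0.17, adjusted p = 0.988), and FL fell against KD (-2.12 ± 0.18, adjusted p = 7.79e-07) and delta45 (-1.69 ± 0.18, adjusted p = 4.24e-06). It was lower in delta45 than in KD (-0.43 ± 0.17, adjusted p = 0.041), a call lost without KD 2, KD 3, delta45 1, delta45 2 or delta45 3 (adjusted p = 0.107, 0.12, 0.166, 0.109, 0.066 in that order), and than in control (-0.42 ± 0.17, adjusted p = 0.0395), a call lost without control 1, control 2, delta45 1, delta45 2 or delta45 3 (adjusted p = 0.11, 0.0813, 0.156, 0.103, 0.0618 in that order). Tyms read 32.04, 31.995 and 31.7 CPM in control, 40.5, 39.1 and 51.1 in KD, 42.7, 41.8 and 43.7 in delta45 and 13.02, 11.4 and 10.7 in FL. A rise was called in KD against control (0.45 ± 0.12, adjusted p = 0.00832), though not with only those 2 groups in the fit (adjusted p = 0.0525), KD and delta45 overlapped (-0.029 ± 0.12, adjusted p = 0.848), and FL lay below every other library (-1.903 ± 0.13, adjusted p = 1.19e-07 against KD). The annotation lists 1 pseudogene of Tyms.

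**Figure D4:**
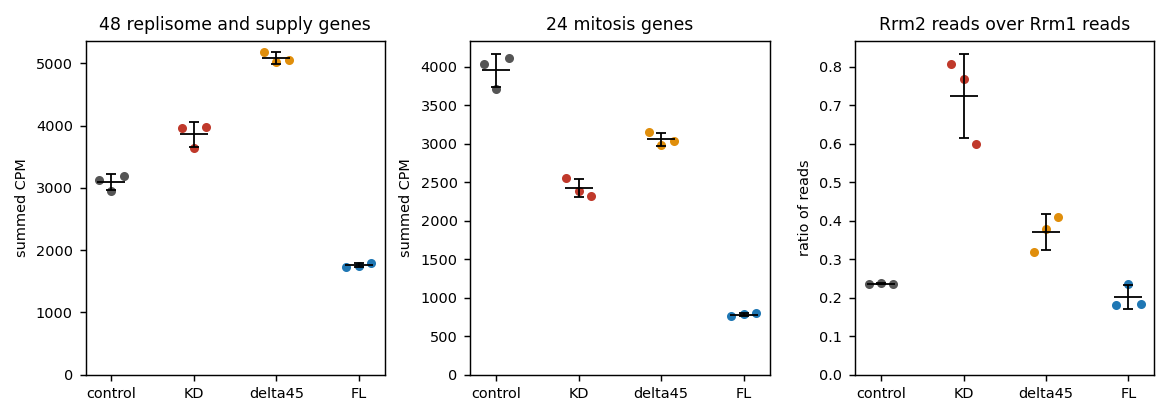
Summed CPM of the 48 genes, summed CPM of 24 mitosis genes and the ratio of Rrm2 to Rrm1 reads in each library (points), with the mean and SD of the 3 libraries of each group (bars). The 48 genes are highest in delta45 and the mitosis genes in control, and both are lowest in FL, while the ratio is highest in KD.

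Other genes of the same pathways were counted from lists drawn up by function, with earlier results of these data known. Over all genes tested, the shares that rose and fell were 25.6 and 24.1% in KD against control, 26.3 and 31.7% in FL against KD, 29.2 and 30.7% in delta45 against KD, and 25.8 and 27% in FL against delta45. Of 25 other replication genes, which include the MCM helicase and its loaders, 11 rose and 5 fell in KD against control. In FL against KD 2 rose and 20 fell, in delta45 against KD 19 rose and 2 fell, and in FL against delta45 3 rose and 21 fell. The smallest adjusted p in the last comparison were those of Mcm3, Mcm6 and Recql4. Of 31 other nucleotide synthesis genes, 16 rose and 2 fell in KD against control, 1 rose and 23 fell in FL against KD, 19 rose and 2 fell in delta45 against KD, and 2 rose and 26 fell in FL against delta45. Atic, of purine synthesis, and Dctd and Dut, of thymidylate supply, led that list. Both lists thus had more falls than rises in FL against either group. Of 14 repair and mitochondrial DNA polymerase genes, 0 rose and 3 fell in KD against control (3 were higher at an unadjusted p under 0.05 and 0 by DESeq2), and 8 rose and 2 fell in delta45 against KD. In FL 4 rose and 4 fell against KD, and 2 rose and 6 fell against delta45, led by Poli, Poln and Polq. Their median change in FL against KD was 0.23, where that of the 48 genes was -1.53. Of 18 genes of the E2F and RB families, 4 rose and 4 fell in KD against control, 9 rose and 1 fell in delta45 against KD, 4 rose and 9 fell in FL against KD and 3 rose and 11 fell in FL against delta45, led by E2f1, E2f8 and Mybl2. The counts of the E2F and RB families in KD against control, and those of the repair polymerases in FL against KD, lay near the shares over all genes. Of 6 CDK inhibitor genes, 2 rose and 2 fell in KD against control, 0 rose and 5 fell in delta45 against KD, 1 rose and 3 fell in FL against KD, and 3 rose and 1 fell in FL against delta45, led by Cdkn1b, Cdkn1c and Cdkn2b. By DESeq2 and at an unadjusted p under 0.05, 0 of these 6 rose in delta45 against KD.

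Mitosis genes differed from the 48 in KD. Of 24 mitosis genes, 0 rose and 17 fell in KD against control, where 25 of the 48 rose, and 0 rose and 24 fell in FL against KD. In delta45 against KD 15 rose and 1 fell, and in FL against delta45 0 rose and 23 fell, led by Ccnb2, Kif20a and Tpx2. No mitosis gene was higher at an unadjusted p under 0.05 or by DESeq2 in the KD against control and FL against KD comparisons, and in FL against delta45 1 was by each. Summed mitosis levels were 4041, 3706 and 4108 CPM in control, 2557, 2392 and 2327 in KD, 3153, 2988 and 3035 in delta45 and 758, 785 and 800.3 in FL. The 4 groups did not overlap. The ratio of the summed levels of the 48 genes to those of the mitosis genes was 0.783 ± 0.012 in control, 1.59 ± 0.10 in KD, 1.66 ± 0.017 in delta45 and 2.25 ± 0.024 in FL (mean ± SD, n = 3). Control thus had the lowest ratio and FL the highest.

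Short motifs were counted in the promoters of the 48 genes and of other genes. RefSeq promoters of 300 bases (250 before and 50 after the start) matched 40 of the 48 genes, with 49 promoters. An E2F match of 7 letters, given above, was found in 25 of the 40 (62.5%), against 19.6% of 9054 other tested genes and 10.9% of all 27025 genes in the table. The stricter 8-letter form, which is any of these with 1 more T before it (TTTCCCGC, for example) and so contains the 7-letter form, was found in 11 (27.5%), against 4.73% and 2.6%. Motifs of 3 other kinds, searched on both strands, differed less from the tested genes. CCAAT was found in 50% against 43.3%, the SP letters GGGCGG in 72.5% against 69.7%, and the GATA letters AGATAA, or with another first base TGATAA, in 4 of the 40 (10%) against 12.6%. In FL against KD, 22 of the 25 genes with a 7-letter match fell, with a median of -1.59, and 11 of the 15 without one fell, with a median of -1.37. In delta45 against KD the medians were 0.41 with and 0.13 without a match. They were -2.05 and -1.61 in FL against delta45, and -1.51 and -0.70 in FL against control, where 22 of the 25 and 11 of the 15 fell. In KD against control the medians were 0.361 with and 0.45 without a match, where 12 of the 25 and 8 of the 15 rose. In delta45 against control they were 0.652 with and 0.665 without, where 18 of the 25 and 10 of the 15 rose. Over all genes tested, 31.7% fell in FL against KD and 31.2% in FL against control. The shares that rose were 25.6% in KD against control and 31.9% in delta45 against control. A match is letters in a window, not a bound site.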

How the data were processed

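The members and the other gene lists were chosen with earlier results of these data known. Per the labels' protocols, RNA came from an RNeasy kit and libraries from the TruSeq RNA kit V2, without strand marking. The authors' tools, per the submitters' processing notes, include HTSeq 0.5.3p9 as the read counter, TopHat 1.4.1, cutadapt 1.1 and DESeq 1.10.1, on mm9. Their order, their settings and the annotation were "not given in the sources used here". Each deposited file holds raw counts of reads per gene as whole numbers. The 5 last rows of each file name no gene, and neither library sizes nor tests use them. Of the reads tallied, 2.117 to 6.133% lay outside genes, 1.33 to 1.809% were ambiguous and 38.69 to 53.31% aligned to several places. A supplied table gave symbols to 32919 of 37991 identifiers.

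filterByExpr chose the genes, TMM scaled them, and edgeR 4.0.16 (glmQLFit, glmQLFTest; R 4.3.3) fitted 1 mean per group over all 12 libraries, whose gene reads ranged from 8783970 to 20464959. Adjusted p is Benjamini-Hochberg over the 12837 genes tested in each of 6 comparisons, and SE is the log2 change over the root of F. For 3 against 3 libraries, the smallest two-sided p of an exact permutation test is 0.1. Replicates differed by more than sampling noise (chi-square over its degrees of freedom of at least 2.216). Genes given in full were, per comparison and role, those with the smallest and largest adjusted p, members called against the majority, and defining genes of each role. On simulated counts for FL against KD (12552 genes, 50 changed per fold), 24% of genes changed 1.5-fold were recovered, 82% of those changed 2-fold and 100% of those changed 4-fold, beside 15 false calls. Far fewer genes changed there than were called in the data (3382 higher and 4063 lower), so these rates need not hold for the data. Alternatives were RLE scaling, library totals, DESeq2 1.42.0, other filters, a replicate block, only the 2 groups compared, and leaving out each library. Exon lengths and overlaps came from GENCODE M21 (GRCm38) and promoters from RefSeq (GRCm38.p6), builds other than that of the counts, matched by gene and never by coordinates.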

Additional observations from a re-analysis of the deposited data

Results flagged for a closer look

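Reads that fell outside genes are not used in any comparison. They made up 2.999 to 3.19% of the tallied reads in control, and on average 5.7% in delta45 and 4.0% in FL, above the highest control library in each case. Their source was not tested, and the 48 genes are counted within gene models, so these reads do not enter their levels.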

How the results depend on the processing

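No call of a member turned to the opposite direction under any alternative, and no member called in the full analysis moved by more than 1.5-fold. Counts or medians that moved were these. In KD against control, 5 members fell with RLE scaling, 5 with DESeq2 and 1 with only the 2 groups compared, where 3 fell in the main analysis. With library totals as the scale, the median of the members was 0.455 in KD against control, -1.79 in FL against KD, -2.18 in FL against delta45, -1.53 in FL against control and 0.708 in delta45 against control. The members higher were then 1 in FL against KD, with 0 at least 2-fold, and 0 in FL against control, and all genes higher were 2048, 2097 and 2377 in FL against KD, delta45 and control. With only the 2 groups compared, the median in FL against KD was -1.47. In KD against control, RLE scaling lost the rises of Pold1, Gins4 and Rnaseh2b (adjusted p = 0.0642, 0.0564, 0.0577 in that order), and fitting with no filter on low counts lost those of Pold1 and Gins4 (0.0512, 0.0914) and the fall of Rrm1 (0.0636) and added the rise of Pola1 (0.036) and the fall of Orc4 (0.0222). Cdc7 was called as lower by DESeq2 (0.0378) and with RLE scaling (0.0438), as was Orc4 with RLE scaling (0.0487), and Tipin was called as higher with library totals (0.0383). Fen1 in FL against delta45 was lost with RLE scaling (0.0527) and no filter (0.0529), and Tk1 in delta45 against control with library totals (0.0572). With only the 2 groups compared, Rfc4 was lost (0.0693) and Gins2 called as lower (0.0444) in delta45 against KD, and Rnaseh2b was called as higher in delta45 against control (0.0315). The causes were not tested.

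Leaving out 1 library at a time gave 1 to 5 members lower and a median of 0.309 to 0.442 in KD against control. In FL against KD, 0 to 1 were at least 2-fold higher and the median was -1.56 to -1.4. In delta45 against KD, 1 to 4 were lower and 3 to 6 at least 2-fold higher. The median was -1.94 to -1.84 in FL against delta45, -1.31 to -1.22 in FL against control, with 2 to 4 higher, and 0.607 to 0.689 in delta45 against control. With 2 libraries left in a group, the spread is taken from all groups.

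The replicate numbers were not taken to pair the libraries, since the labels do not say what they share and not every correlation of deviations from the group means was over 0.1. Over the 9 same-number pairs among KD, delta45 and FL it ran from 0.0315 to 0.248, and a library was closest to its own number in 15 of 18 cases, a hint from the data. Over the 9 pairs with control it ran from -0.196 to 0.269, and 6 of 18 were closest. A fit with the replicate number as a block gave 5 members lower in KD against control and kept the other counts of members within 1.5 times. It called Pola1 and Tipin as higher (adjusted p = 0.0371 and 0.0237) and Orc4 and Cdc7 as lower (0.0298 and 0.0477) in KD against control, and Tk1 was not called in delta45 against KD (0.0523) or control (0.0512). Depth limits most the members with low levels in FL, such as Gins1, Orc1 and Dna2. Reads without molecular identifiers are not independent molecules.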
